A study of Homo sapiens with 4 samples.

Results

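The PIM kinases are a family of 3 serine/threonine kinases, PIM1, PIM2 and PIM3, that promote survival, cell-cycle progression and protein synthesis. All 3 genes were taken by name out of 18377 genes, and each was measured by 1 probe set, so the rule of taking the brightest probe set of a gene made no choice here. Their mean level over the arrays, which that rule reads, was an intensity of 62.7 for PIM1, 450.1 for PIM2 and 199 for PIM3. These genes were set apart with their difference between the groups already known, so the p-values below describe that difference and are no independent support for it.

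OPM2 is an established cell line from human multiple myeloma, a tumour of plasma cells, and its RNA was profiled on 4 arrays. The control group was 2 cultures given the solvent DMSO. The treated group was 2 cultures given VS-5584 (SB2343), a small-molecule inhibitor of PI3 kinases and mTOR, at 123 nM on the sample labels and 125 nM in the series' design text. All cultures were harvested at 24 h, and the design text places the dose below the inhibitory concentration measured in this line at a later time. The samples are called biological replicates without a statement of how the cultures were separated, so p-values measure the spread between these samples. The p-values, SEs and intervals from limma also draw on the spread of the other genes tested. A single line was used, and in bulk RNA more PIM mRNA per cell and more cells with PIM mRNA cannot be told apart.

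PIM kinases differ from most kinases in that they are active as soon as they are made. Their activity is therefore set by the amount of mRNA and protein, and not by an activating phosphorylation. Cytokines such as interleukin 6 switch the genes on through JAK kinases and STAT factors, and signals from TNF-family receptors do so through NF-κB. The PIM proteins recognise a basic sequence motif much like that of AKT, and the 2 kinase families share substrates that block cell death and drive translation. PIM2 is the member best known in myeloma, where plasma cells express it strongly and depend on it.

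The 250 bases before the annotated start of each gene set PIM2 apart from PIM1 and PIM3 in base content and motif matches. Sequences are from RefSeq, build GRCh38.p14, 5′ to 3′ on the gene's own strand. The genes lie on 3 chromosomes: PIM1 at chr6:37169902-37170151 (+ strand), PIM2 at chrX:48919025-48919274 (- strand) and PIM3 at chr22:49960522-49960771 (+ strand). Capitals mark matches to the octamer ATGCAAAT, the STAT motif TTCNNNGAA and the box CCAAT on either strand.
PIM1: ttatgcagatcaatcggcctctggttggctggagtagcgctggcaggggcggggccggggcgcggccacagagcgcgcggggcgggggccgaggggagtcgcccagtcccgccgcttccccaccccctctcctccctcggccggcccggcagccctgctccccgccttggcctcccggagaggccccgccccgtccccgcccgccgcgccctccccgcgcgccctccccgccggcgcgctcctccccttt
PIM2: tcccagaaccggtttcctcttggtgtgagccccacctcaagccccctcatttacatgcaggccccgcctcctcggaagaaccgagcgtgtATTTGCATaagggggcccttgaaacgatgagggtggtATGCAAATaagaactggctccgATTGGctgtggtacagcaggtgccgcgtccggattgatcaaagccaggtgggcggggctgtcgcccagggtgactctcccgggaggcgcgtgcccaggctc
PIM3: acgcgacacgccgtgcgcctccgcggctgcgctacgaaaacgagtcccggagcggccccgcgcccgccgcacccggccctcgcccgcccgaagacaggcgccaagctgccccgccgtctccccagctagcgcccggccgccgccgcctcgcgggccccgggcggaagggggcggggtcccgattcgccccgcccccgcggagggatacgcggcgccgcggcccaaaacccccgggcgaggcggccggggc

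The PIM1 and PIM3 windows were 79.6% and 82.0% G or C, against 61.2% for PIM2 and a median of 58% over 35093 promoters of this length. Each of the first pair held 4 matches to the GC box GGGCGG, where PIM2 held 1, and 42.6% of all promoters held at least 1. PIM2 alone of the 3 carried the octamer, with a match on the reverse strand that starts 160 bases before the gene start and a match on the forward strand at 123 bases. The octamer is the site of the POU-domain factors OCT1 and OCT2, which act in B cells and plasma cells with the coactivator OBF1 (POU2AF1). A match occurred in 1.63% of all promoters and at least 2 matches in 0.037%, or 13 promoters. PIM2 also held 1 CCAAT match, 101 bases before the start, as 32% of promoters did. No window held the STAT motif (6.57% of promoters), the FOXO motif GTAAACA (2.98%) or the E-box CACGTG (6.34%), which says only that these letters are not in these 250 bases. The octamer was searched for after the PIM2 sequence had been read. No measurement here reports factor binding.

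The 4 arrays were of like brightness, with median intensities of 49.3 to 52.5 over 28869 probe sets. Treated replicate 2 stood apart from the rest: its log2 values had 1.74 units between the quartiles, against 1.93 to 1.95 on the other 3 arrays, and it correlated with them at 0.980 to 0.985, against 0.993 to 0.996 among the others. Of 18377 genes, the 40% with the lowest mean level were left out and 11026 were tested, and all 3 PIM genes passed this filter on the mean over both groups. PIM1 lay close above it, at 62.7 against a limit of 48.9. All 9 plasma cell markers measured passed as well, while 0 of 5 T cell, 0 of 4 myeloid, 1 of 4 mature B cell and 2 of 5 stromal markers did. No background level was used here, so a passing gene is not thereby shown to be expressed.

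PIM2 was higher in treated cells, PIM1 was almost level, and PIM3 was slightly lower. None of the 3 passed limma's test with Benjamini-Hochberg adjustment over all tested genes, as did 0 of 11026 genes (0%). Limma pools each gene's variance with that of all tested genes, here with 7.42 prior against 2 residual degrees of freedom. Without pooling, in the ordinary two-sample test, the SEs were 0.019 for PIM1, 0.14 for PIM2 and 0.031 for PIM3. The adjusted p in that test was 0.766 for each. Its unadjusted p was 0.22 for PIM1, 0.0486 for PIM2 and 0.0491 for PIM3, so PIM2 and PIM3 were level there. The share of all tested genes under 0.05 in that test was not counted. At an unadjusted p under 0.05, limma had 1149 genes, 10.4% of those tested. PIM2 was the only PIM gene among them, one of the 164 that were higher (1.49% of tested genes). On both treated arrays PIM2 and PIM1 lay above both controls, as 14.7% of tested genes did, and PIM3 lay below both, as 29.2% did. With 43.9% of tested genes separated in this way in one direction or the other, separation of all 3 is read here as a description only.

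PIM2 stood at a log2 intensity of 8.37 and 8.64 in control replicates 1 and 2, and at 9.07 and 9.18 in treated replicates 1 and 2. On the linear scale these were intensities of 331, 398, 538 and 579. The treated pair was thus closely spaced and clear of the controls, and the controls differed from each other by more than the treated arrays did. The group means were 8.50 ± 0.19 and 9.13 ± 0.07 (SD, n = 2 each), a log2 difference of 0.62 ± 0.14 (SE) or 1.54-fold, with a 95% interval of 0.30 to 0.95. Limma's adjusted p was 0.276, and PIM2 was number 69 of 11026 by its unadjusted p (0.0017) and number 27 by the size of the increase.

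The increase was of like size on both treated arrays. Against the control mean, PIM2 differed by 0.57 on the first treated array, where the median gene differed by -0.0022, and by 0.68 on the second, where the median gene differed by -0.14. It was number 33 among the increases on the first array and number 47 on the second. Both differences are taken from the same 2 controls, so they are not independent of each other. The gap between the controls was 0.26, and against the higher control alone, without control replicate 1, the difference was 0.49. It was 0.75 without control replicate 2, 0.68 without treated replicate 1 and 0.57 without treated replicate 2. Each of these fits has 1 array in a group, assumed to vary like the other group, so only the differences are given. The spread comes from the other group, and limma pools each gene's spread with that of all tested genes. The SE of such a fit is thus not that of the PIM2 arrays alone. Without treated replicate 1, the treated array left is the one that stood apart.

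**Figure D1:**
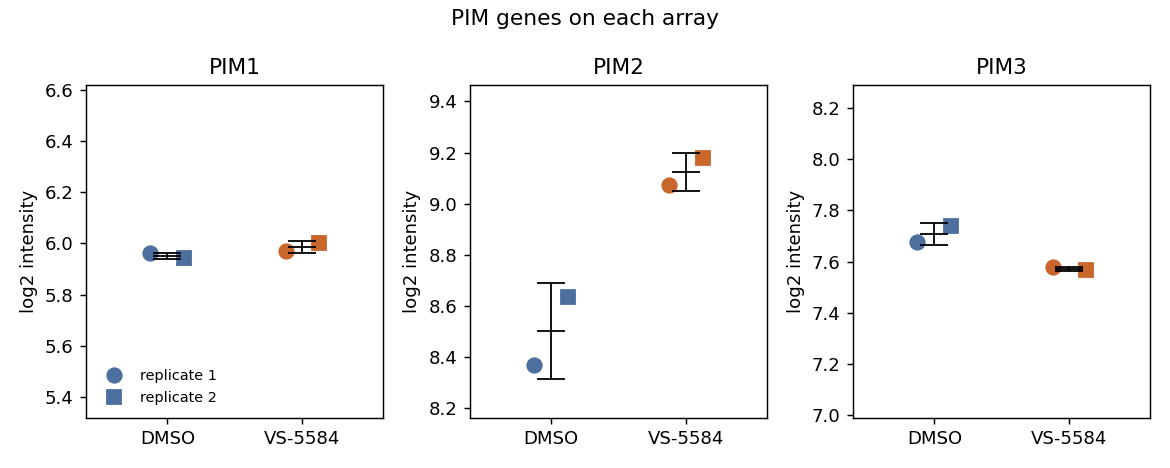
Log2 intensity (vertical axis, each panel spanning the same range of log2 units) of PIM1, PIM2 and PIM3 on the DMSO and VS-5584 arrays; circles are replicate 1, squares replicate 2, and bars the mean ± SD (n = 2). The PIM2 values at 9.07 and 9.18 sit above both controls at 8.37 and 8.64, whereas PIM1 and PIM3 move little on this scale.

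PIM1, the member first found as a common integration site of leukaemia viruses in mice, hardly differed. Its log2 intensities were 5.96 and 5.94 in the controls and 5.97 and 6.004 in treated cells. The treated values were the higher ones, by margins of hundredths of a log2 unit. The group means were 5.95 ± 0.01 and 5.99 ± 0.02 (SD, n = 2 each), a difference of 0.03 ± 0.13 (SE) with a 95% interval of -0.26 to 0.32 (limma adjusted p = 0.936). The sign turned with scaling, to -0.012 with median centring and -0.00056 with quantile normalization. PIM1 was the dimmest of the 3 probe sets, and an added constant in the deposited intensities would shrink its fold change, so the interval does not show that PIM1 was unchanged.

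PIM3, a member with many of the same substrates, stood at 7.68 and 7.74 in the controls and at 7.58 and 7.57 in treated cells. The treated values lay just below the controls and very close to each other. The means were 7.71 ± 0.04 and 7.57 ± 0.01 (SD, n = 2 each), a log2 difference of -0.14 ± 0.13 (SE) with a 95% interval of -0.43 to 0.15 (limma adjusted p = 0.721). On treated replicates 1 and 2 PIM3 differed from the control mean by -0.13 and -0.14. The median gene differed by -0.0022 on treated replicate 1, where PIM3 was the lower, and by -0.14 on treated replicate 2, like PIM3. After cyclic loess normalization the PIM3 difference was 0.0014, with its sign turned.

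Within the family the ratios moved toward PIM2. Relative to PIM3, PIM2 differed by 0.76 between the groups, at 0.70 and 0.82 on the treated arrays, against -0.10 and 0.10 on the controls around their mean. Relative to PIM1, whose log2 ratio to PIM2 changed by -0.59, the treated arrays stood at -0.55 and -0.62 and the controls at 0.14 and -0.14. The ratio of PIM1 to PIM3 changed by 0.17, with 0.15 and 0.19 on the treated arrays and 0.04 and -0.04 on the controls. In these 3 ratios the groups did not overlap, which is read as a description only. Each ratio follows from the others, and the share of other gene pairs separated in this way was not counted. The exact two-sided permutation test over the 4 arrays gave p = 0.333 for each, which is the smallest p that 2 samples against 2 allow, so no difference between members could pass it. These ratios compare changes and not levels, since probe sets of different genes differ in brightness for the same RNA.

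**Figure D2:**
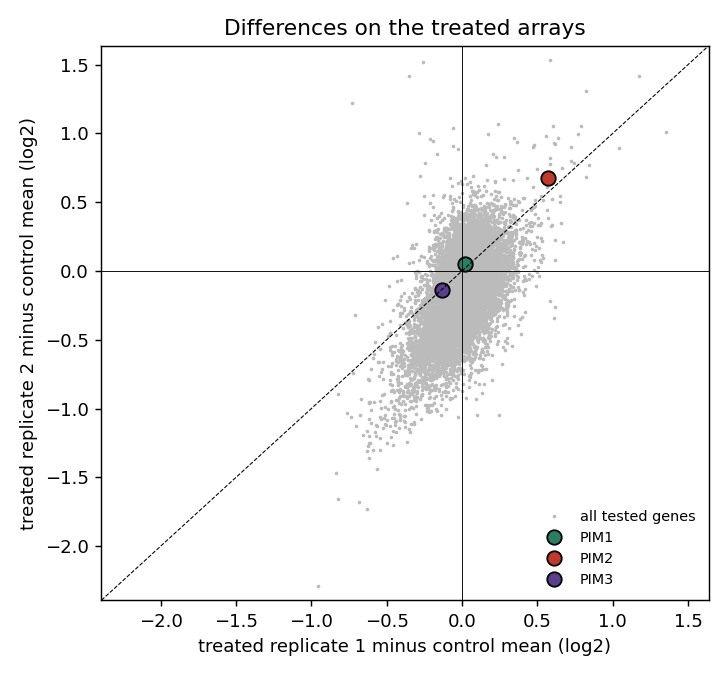
Log2 difference from the control mean on treated replicate 1 (horizontal) and treated replicate 2 (vertical) for 11026 tested genes (grey) and the 3 PIM genes (coloured); the dashed line marks equal differences, and both axes share the same controls. PIM2 (0.57 and 0.68) lies at the upper right edge of the cloud and PIM1 and PIM3 near its centre.

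The genes that bring cytokine signals to the PIM genes gave mixed values. Of 11 tested cytokine receptor genes 4 were higher and 7 lower, with a median log2 difference of -0.064, beside -0.064 for all tested genes, of which 62.7% were lower. The list's median turned to 0.09 without treated replicate 2 and to 0.04 after cyclic loess, and was -0.20 without control replicate 2. IL6ST, the gp130 chain shared by receptors of the interleukin 6 family, stood at 9.24 and 9.19 in the controls and 9.46 and 9.79 in treated cells. Its treated values were above both controls, with a difference of 0.41 ± 0.15 (SE) and a limma adjusted p of 0.422. That difference was 0.24 without treated replicate 2. IL6ST was the only one of the 11 with an unadjusted p under 0.05 in limma, a share near the 10.4% of all tested genes. IL6R, the interleukin 6 binding chain, differed by 0.23 and -0.53 on treated replicates 1 and 2, so the treated arrays fell on both sides of the controls. IFNGR2, a chain of the interferon gamma receptor, differed by -0.34 ± 0.16, and by -0.15 without treated replicate 2.

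Of the JAK kinases and STAT factors, 6 were tested and 4 were higher, with a median of 0.060. The 2 treated arrays gave this median opposite signs, 0.18 on replicate 1 and -0.12 on replicate 2. STAT3, the main STAT factor of interleukin 6 signalling, stood at 7.81 and 7.90 in the controls and 8.22 and 7.91 in treated cells, a difference of 0.21 ± 0.15 (SE). Treated replicate 2 cleared the higher control by less than 0.01. STAT5B, another activator of PIM genes, was at 7.04 and 7.05 in the controls and at 6.92 and 6.52 in treated cells, a difference of -0.32 ± 0.16 that was -0.13 without treated replicate 2. JAK1 and JAK2, the kinases bound to such receptors, differed by 0.08 and -0.04, the latter turning to 0.0017 after cyclic loess. STAT5A lay below the filter.

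Feedback inhibitors of cytokine signals are themselves switched on by STAT factors. In this list 10 of 13 tested genes were lower, against 62.7% of all tested genes, and 0 had an unadjusted p under 0.05 in limma, against 10.4%. The list's median of -0.14 was -0.015 without treated replicate 2 and -0.014 after cyclic loess. SOCS3 and CISH, both induced by active STATs, differed by 0.06 and 0.08, with treated replicate 1 at -0.02 and 0.02. SOCS1 lay below the filter. SOCS6, an adaptor of the same family, and PTPN2, a phosphatase of JAK1 and STAT proteins, differed by -0.34 ± 0.16 and -0.27 ± 0.16 (SE), and by -0.12 and -0.08 without treated replicate 2.

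Among TNF-family receptors and NF-κB genes, 12 of 18 tested were higher and 6 lower, where 62.7% of all tested genes were lower. The list's median of 0.041 turned to -0.0050 with median centring, to -0.02 without control replicate 2 and to -0.02 without treated replicate 1. CHUK, the IKKα kinase, showed the widest difference of the list. It stood at 7.50 and 7.09 in the controls and 7.09 and 6.32 in treated cells, a difference of -0.59 ± 0.24 (SE), which was -0.21 without treated replicate 2. REL, an NF-κB subunit of B cells, differed by -0.34 ± 0.15, and by -0.19 without that array. These were the 2 of 18 with an unadjusted p under 0.05, a share near the 10.4% of all tested genes. NFKB1 and RELA, the subunits of classical NF-κB, differed by -0.14 and -0.09, and both turned sign after cyclic loess (0.0070 and 0.036).

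**Figure D3:**
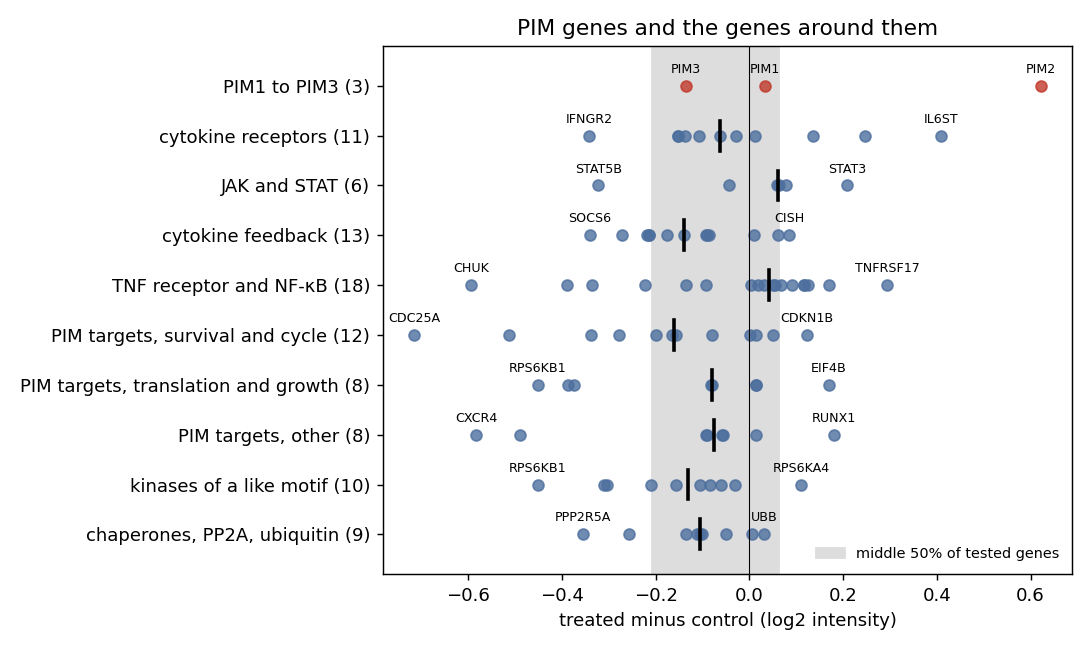
Log2 difference between treated and control means (horizontal axis) for the PIM genes (red) and for the tested genes of 9 related lists (blue, number in parentheses), with each list's median as a black bar, its extreme genes named and the middle 50% of all tested genes shaded. PIM2, at 0.62, lies to the right of every gene of the lists, and the list medians, from -0.16 to 0.060, lie within the shaded range.

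Genes for proteins that PIM kinases phosphorylate or act through were lower about as often as all tested genes (62.7%). In the survival and cell-cycle list 8 of 12 tested genes were lower, with a median of -0.16 that was -0.03 without treated replicate 2 and -0.05 after cyclic loess. Of these genes 3 had an unadjusted p under 0.05, all lower (8.93% of tested genes were so). CDC25A, the phosphatase that opens entry into S phase, stood at 7.42 and 7.32 in the controls and at 7.05 and 6.26 in treated cells, a difference of -0.72 ± 0.22 (SE, limma adjusted p = 0.369). CDC25C, its counterpart at mitosis, differed by -0.51 ± 0.20. Both lay below the controls on each treated array, and without treated replicate 2 they differed by -0.32 and -0.19. CDKN1B, the CDK inhibitor p27 that PIM kinases mark for removal, was at 8.95 and 9.06 in the controls and 9.16 and 9.09 in treated cells, a difference of 0.12 ± 0.13 that ran from 0.08 with median centring to 0.25 after cyclic loess. BAD, the death protein that PIM2 silences by phosphorylation, differed by 0.05 ± 0.14, with -0.05 and 0.15 on the treated arrays. FOXO3 lay below the filter.

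In the list of targets in translation and growth, 5 of 8 genes were lower and the median was -0.081, which was -0.22 without treated replicate 1. Of these genes 2 had an unadjusted p under 0.05 in limma, each of them lower (8.93% of tested genes were so). EIF4EBP1, the translation repressor 4E-BP1 on which PIM2 and mTOR signals meet, stood at 7.52 and 7.43 in the controls and at 7.18 and 7.02 in treated cells. The treated values were below both controls, by 0.37 on average (a difference of -0.37 ± 0.13, SE, limma adjusted p = 0.417). RPS6KB1, the S6 kinase p70, also counted among the kinases below, differed by -0.45 ± 0.14, with -0.44 and -0.47 on the treated arrays. EIF4B, an initiation factor phosphorylated by PIM kinases and S6 kinase, differed by 0.17 ± 0.13, and by 0.07 with quantile normalization. AKT1S1, the mTORC1 inhibitor PRAS40, and MYC, a PIM partner in lymphoid tumours, each differed by 0.01, and each turned sign with median centring (-0.03 for both).

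Of the other substrates, 6 of 8 tested were lower, or 4 after cyclic loess, with a median of -0.075 that was -0.04 without treated replicate 2. CXCR4, the chemokine receptor whose surface display PIM1 promotes, showed the smallest p. It was the 1 gene of the 8 that was lower with an unadjusted p under 0.05 in limma (8.93% of tested genes were so). It stood at 8.68 and 8.81 in the controls and at 8.34 and 7.98 in treated cells, a difference of -0.58 ± 0.16 (SE, limma adjusted p = 0.307). ABCG2, a drug efflux pump phosphorylated by PIM1, differed by -0.49 ± 0.24, with -0.09 and -0.88 on the treated arrays, and its groups overlapped.

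PIM2 went the other way from most kinases with a like substrate motif. Of 10 tested AKT, SGK, S6 and RSK kinase genes, 9 were lower (62.7% of all tested genes were), with a median of -0.13 that was -0.08 without treated replicate 2. On both treated arrays 5 lay below both controls, as 29.2% of tested genes did, and 0 lay above both, as 14.7% did. RPS6KB1, given above, had the smallest p, followed by RPS6KA5, the MSK1 kinase, at -0.30 ± 0.16 (SE), which was -0.12 without treated replicate 2. AKT1, the kinase with the most substrates in common with PIM2, differed by -0.21 ± 0.15, and by -0.06 without that array. No test set these kinases against PIM2.

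PIM proteins are short-lived, held stable by HSP90 and removed after dephosphorylation by the phosphatase PP2A. Of 9 tested genes of this turnover list 7 were lower, with a median of -0.11, which was 0.0068 after cyclic loess and -0.0060 with quantile normalization. PPP2R5A and PPP2CA, a targeting and a catalytic subunit of PP2A, differed by -0.36 ± 0.16 and -0.26 ± 0.14 (SE), and by -0.18 and -0.15 without treated replicate 2. Both lay below the controls on each treated array. PIM protein was not measured.

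The 4 genes whose course over the 4 arrays was closest to that of PIM2 were also higher on both treated arrays and, like PIM2, lower in control replicate 1 than in control replicate 2. They were chosen by the smallest Euclidean distance between log2 values centred on each gene's mean, over 4 arrays, and so cannot differ much from PIM2. PROS1, the anticoagulant cofactor protein S, was nearest, at a distance of 0.12 and with a difference of 0.68. ELOVL7, an elongase of long-chain fatty acids (0.13), SMIM14, a small membrane protein (0.14), and MOAP1, a BAX-binding modulator of apoptosis (0.18), differed by 0.50, 0.76 and 0.47. Around PIM1 the nearest were SNAI3, SP3P, TBX10 and ME2 (distances of 0.0045 to 0.013). Around PIM3 they were SPACA9, RNF115, UBE2V2 and SNAPC2 (0.016 to 0.020). The distances around PIM1 and PIM3 were shorter than those around PIM2, and these 8 genes differed by 0.044 at most in the PIM1 set and by -0.15 to -0.13 in the PIM3 set.

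The genes on either side of PIM2 on the X chromosome differed by less than PIM2. Toward the p-terminal side, SLC35A2, the UDP-galactose transporter, stood at 6.18 and 6.30 in the controls and 6.23 and 6.05 in treated cells, and PQBP1, a splicing-related protein, differed by -0.14 ± 0.15 (SE), turning to 0.0044 after cyclic loess. On the other side, OTUD5, a deubiquitinase, was at 7.15 and 7.26 in the controls and 7.42 and 7.35 in treated cells, a difference of 0.18 ± 0.13. Its treated values were above both controls, but by less than those of PIM2. KCND1, a potassium channel gene, lay below the filter. Of the measured neighbours of PIM1 only MTCH1, a mitochondrial carrier homologue, was tested (-0.10 ± 0.20). CRELD2 and ALG12, beside PIM3, differed by -0.06 ± 0.16 and 0.12 ± 0.13. TMEM217B and TTLL8 were not analysed here.

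**Figure D4:**
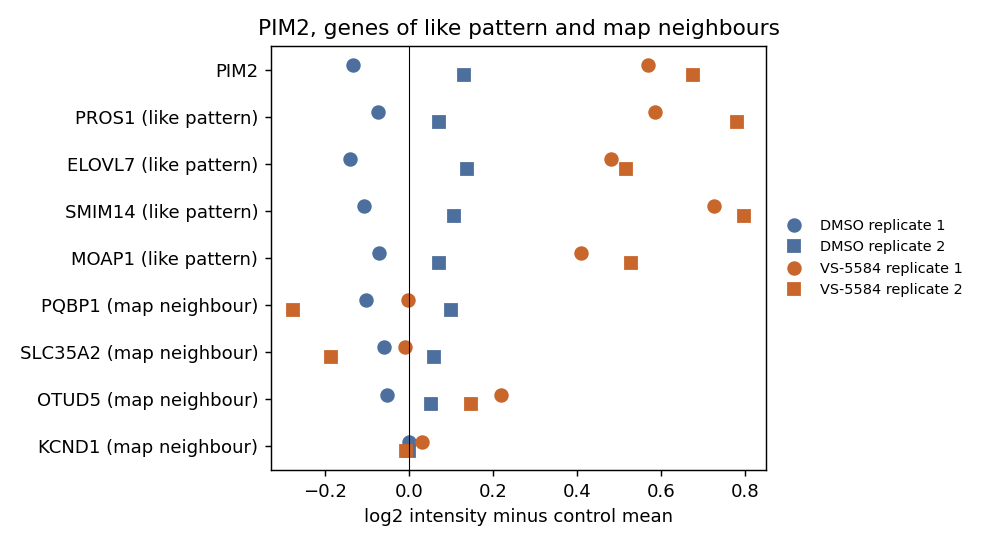
Log2 intensity minus the control mean (horizontal axis) on each array for PIM2, the 4 genes closest to it in pattern and its 4 map neighbours; blue is DMSO, orange VS-5584, circles replicate 1 and squares replicate 2. The genes of like pattern, chosen for it, sit with PIM2 at 0.41 to 0.80 on the treated arrays, while the map neighbours stay between -0.27 and 0.22.

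Genes with an octamer were higher about as often as other genes. Of 160 tested genes with 1 octamer in a promoter window, 23 lay above both controls on both treated arrays, or 14.4%. Among 8717 tested genes with a promoter window and no octamer the share was 13.5%. The median difference was -0.098 with 1 octamer and -0.076 with none. Of the 13 genes with at least 2 octamers 6 were tested. PIM2 had the largest difference of these, but its increase was known before the octamer was searched for, so this rank is a description only. A link between octamers and the PIM2 increase was not tested. KCNN3, a potassium channel gene, differed by 0.26, ATF7IP by 0.07, POLM by 0.02, PRRC2A by -0.19 and the cell-cycle factor gene E2F3 by -0.39. The octamer factor POU2F2 had a mean of 6.61 ± 0.07 in the controls and 6.63 ± 0.06 after treatment, and its coactivator POU2AF1 at 7.97 ± 0.22 and 8.06 ± 0.12 (SD, n = 2 each). Both overlapped between the groups, with differences of 0.01 ± 0.13 and 0.08 ± 0.15 (SE). These genes were taken up after the promoter had been read, and POU2F1 was not analysed here.

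**Figure D5:**
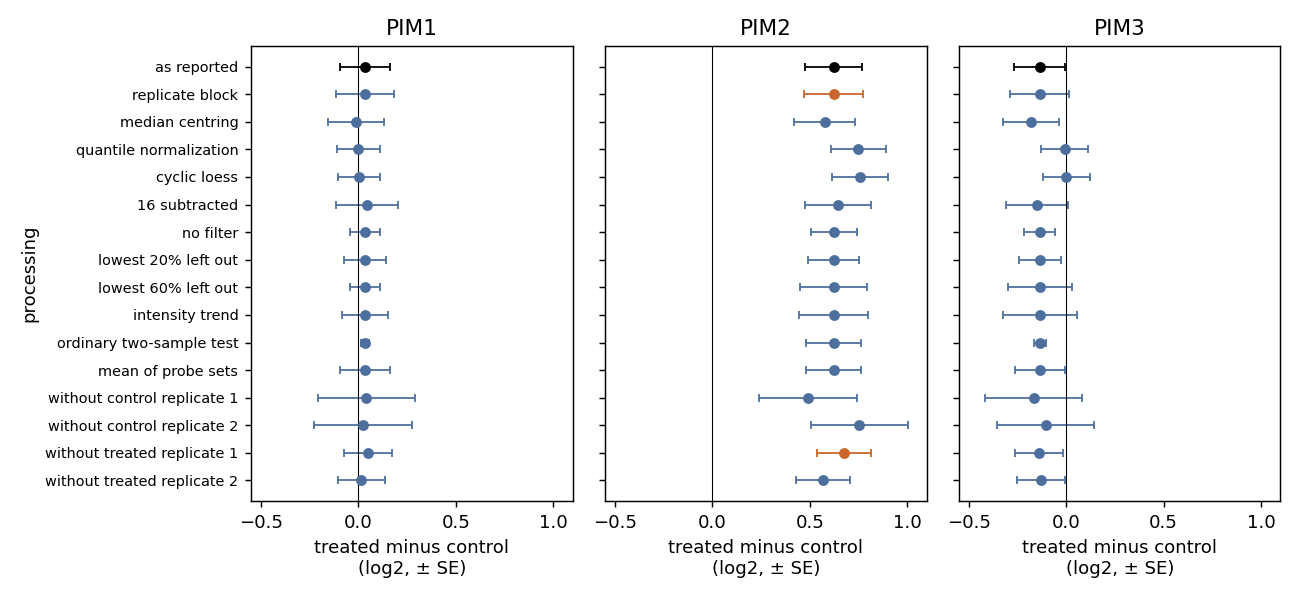
Log2 difference between treated and control (horizontal axis, ± SE) for each PIM gene as reported (black) and under 15 other ways of processing (rows), orange where the adjusted p was under 0.05; with the lowest 60% of genes left out PIM1 was not tested and its value without a filter is drawn. PIM2 stays between 0.49 and 0.76, PIM1 lies around 0, and PIM3 lies between -0.18 and 0.0014. Rows with an array left out have 1 array in a group, so their colour is not read here.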

How the data were processed

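The authors deposited linear intensities of 28869 probe sets on each of 4 arrays. Per the submitters' processing notes the authors used RMA, with no version. Values start near 20 on each array and are not log2, and the last step, any added constant and the background step are not given in the sources used here. An added constant would shrink fold changes, those of dim genes most. The number of arrays limits the precision.

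Intensities were turned into log2 values and not normalized again. Genes were named from the platform annotation (19310 probe sets with 1 gene, 1752 with several, 7807 with none listed), and symbols were updated through RefSeq by gene ID (19279 matched). Of several probe sets per gene the one with the highest mean was kept. After the dimmest 40% of genes were left out, limma 3.58.1 (R 4.3.3; lmFit and eBayes, no trend, two-sided, threshold 0.05, Benjamini-Hochberg over 11026 genes) compared 2 treated with 2 control arrays. Values of genes below the filter come from the fit of all genes. The code was tested on simulated data. All 3 members matched the RefSeq promoter table, whose 35093 distinct windows were searched on both strands.

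Genes named are the 3 members, the 2 tested genes of each related list with the smallest unadjusted p, a fixed panel of 21 genes, the 4 genes nearest in pattern to each member and its 2 protein-coding neighbours on each side. Members and lists were chosen with earlier results of these data known. Other genes were chosen after the promoters or values were seen. Alternatives were a replicate block, median centring, quantile and cyclic loess normalization, 16 subtracted from each intensity, other filters, an intensity trend, an ordinary two-sample test, the mean of probe sets, another threshold and leaving out each array. Figures were drawn with matplotlib 3.10.9.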

Additional observations from a re-analysis of the deposited data

How the results depend on the processing

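PIM2 was higher under each of 15 alternatives, at 0.58 to 0.76 with all 4 arrays (adjusted p = 0.0055 to 0.766 in limma and the ordinary test). With an array left out it differed by 0.49 to 0.75. For most alternatives this sign was fixed in advance. The replicate block, filters, intensity trend, ordinary test and mean of probe sets leave the PIM2 difference at 0.62. As both treated values lay above both controls, subtracting 16 or leaving out an array could not turn its sign. Only the median centring, quantile and cyclic loess settings could have done so. PIM1 turned negative with median centring (-0.012) and quantile normalization (-0.00056), and PIM3 turned positive with cyclic loess (0.0014). With the replicate number as a block PIM2 passed in limma (difference 0.62, adjusted p = 0.0055), as did 432 genes. The SE in that fit was 0.15 for each PIM gene, set mostly by the pooling with all tested genes and little by PIM2's own spread. The numbers are not stated to pair the cultures, and same-numbered arrays deviated from their group means with r = 0.16. Genes past the threshold numbered 2 with quantile normalization, 16 with cyclic loess, 2 with 16 subtracted, 58 with the lowest 60% left out, 80 with an intensity trend, 1 at an adjusted p under 0.1, and 2 to 2632 with an array left out. After cyclic loess 1 JAK or STAT gene and 4 protein turnover genes were lower. With an array left out, 4 to 7 cytokine receptor genes, 1 to 5 JAK or STAT genes and 7 to 10 TNF receptor and NF-κB genes were lower. The cause of these shifts was not tested. Dim genes such as PIM1 are limited by signal over background, which was not measured here.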
